A study of Rattus norvegicus with 12 samples.

Results

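The genes described here are 9 members of the metabotropic glutamate receptor and Homer families, the receptors *Grm2*, *Grm3*, *Grm4*, *Grm5*, *Grm7* and *Grm8* and the scaffold genes *Homer1*, *Homer2* and *Homer3*. They were chosen by symbol from the 37209 genes listed, and the rule itself uses no measured value. All 9 passed the filter on low counts that left 20944 genes for testing. The samples were central nucleus of the amygdala (CeA) punches from 12 male wild type Sprague Dawley rats aged 14 to 16 weeks, with 1 poly-A RNA-Seq library per rat and RIN values above 8.6. The 6 CIE rats received chronic intermittent ethanol, as daily vapor alternating with air over several weeks, and were taken when the last exposure ended, while still intoxicated. The 6 Control rats were handled in the same way in continuous air and taken at the end of their last air exposure. The rats carry the numbers of the sample labels, 1 to 6 for CIE and 7 to 12 for Control. The tissue came from 1 hemisphere per rat, and rats were housed in shared cages that the labels do not give. The numbers pair no rats across groups, and an effect of this order cannot be told apart from CIE.

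Metabotropic glutamate receptors are G protein-coupled receptors that tune synaptic strength over seconds to minutes. *Grm5* encodes the group I receptor mGlu5, which sits mainly beside the postsynaptic density and acts through Gq and phospholipase C. *Grm2* and *Grm3* encode the group II receptors and *Grm4*, *Grm7* and *Grm8* those of group III. Both groups couple to Gi/o and reduce transmitter release, and *Grm3* is also present in glia. The Homer proteins bind the tail of group I receptors through their EVH1 domain and link them to Shank scaffolds and to IP3 receptors on internal calcium stores. The long Homer forms join through a coiled coil, whereas the short activity-induced product Homer1a lacks it and uncouples the link. Counts per gene do not separate Homer1a from the long forms of *Homer1*. In the amygdala, mGlu5, Homer and the group II receptors are known from work on ethanol drinking and seeking.

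Total counts ranged from 39082548 to 95647601 per rat. No 2 rats of a group agreed within sampling noise (chi-square per degree of freedom of at least 17.5 between pairs), so each counted as 1 replicate. CeA neuron markers were present, and 2 of the 9 tested were lower in CIE rats at a nominal p below 0.05 in edgeR. Over all genes tested, 8.31% passed this threshold. The list had a median log2 fold change of -0.036. *Prkcd*, which marks a class of CeA GABA neurons, was at 31.7 ± 8.25 CPM (SD, n = 6, with CPM for counts scaled by library size and TMM factor) in CIE rats and 34.9 ± 5.81 CPM in Control rats. The neuronal marker *Rbfox3* was at 183 ± 33.4 CPM and 175 ± 33.9 CPM. As a score, the mean log2 CPM of the list, the CeA markers were at 4.47 to 5.70 in CIE rats and 5.01 to 5.55 in Control rats. CIE rat 6 had the lowest value. The scores of neighboring regions varied more. *Slc17a7*, the vesicular glutamate transporter of cortical and basolateral neurons, was at 130.1 ± 139 CPM in CIE rats and 32.3 ± 50.3 CPM in Control rats. CIE rats 2 and 4 and Control rat 10 had the highest striatal marker scores, 8.5, 7.36 and 8.60 as the mean log2 CPM of 9 genes, against 4.75 to 6.36 in the other 9 rats. In such punches, fewer cells of a type and less RNA per cell cannot be told apart.

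None of the 9 members passed a test of the difference between CIE and Control rats. At 5% FDR in edgeR's quasi-likelihood test, 0 of 9 members passed, against 0.363% of all genes tested, and at a nominal p value below 0.05 again 0 of 9 passed, against 8.31% of all genes. In every member the CIE and Control values overlapped, while 0.893% of all genes tested had no overlap. The exact permutation test of each member, which cannot give a p below 0.00216 with 6 rats against 6, also gave 0 of 9 below 0.05. The log2 fold changes, with negative values for lower expression in CIE rats, lay between -0.11 (*Homer3*) and 0.48 (*Grm2*). Of them, 5 were above 0 and 4 below, and their median was 0.023, against 0.0010 over all genes. DESeq2, the tool named in the study's methods, also gave 0 members at a nominal p below 0.05. The smallest FDR was 0.740, for *Grm2*. CPM values are not divided by transcript length, so levels are compared here between rats and not between genes.

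**Figure D1:**
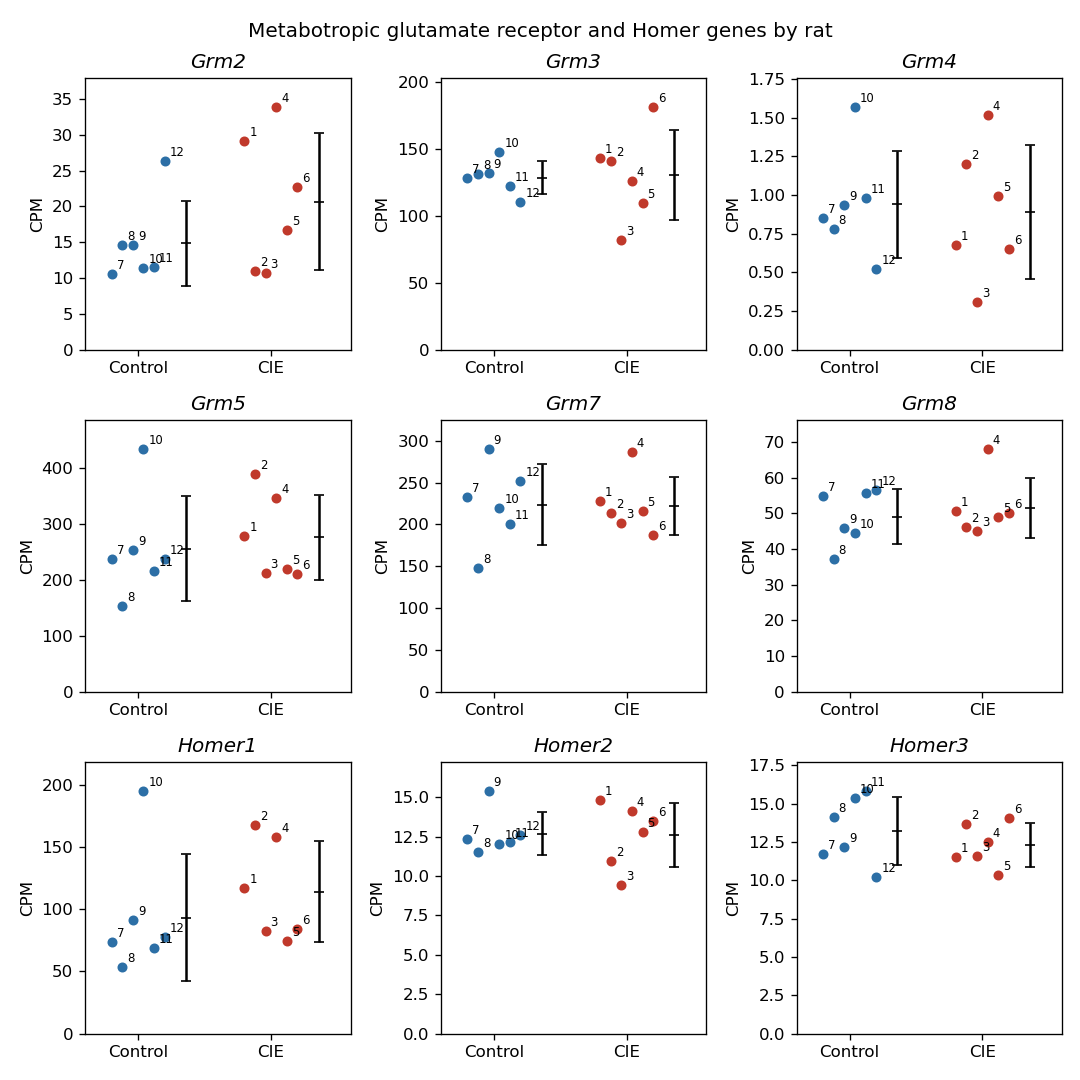
Expression of the 9 genes in CPM (vertical axes, from 0) in each Control (blue) and CIE (red) rat, numbered as in the labels, with the mean and SD of each group as a black bar. The groups overlap in every panel, and Control rat 10 and CIE rats 2 and 4 are the 3 highest in both *Grm5* and *Homer1*.

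*Grm5* was at 210 CPM in the lowest, 249.5 CPM in the median and 389.6 CPM in the highest CIE rat. The Control rats had a lowest value of 153 CPM, a median of 238 CPM and a highest value of 433.5 CPM. The Control values spanned the whole range of the CIE values, with Control rat 8 below and Control rat 10 above every CIE rat. The group means were 276 ± 76.5 CPM and 255.5 ± 94.1 CPM (SD, n = 6 each). The log2 fold change was 0.11 (SE 0.22, edgeR FDR 0.933), with a 95% interval of -0.37 to 0.59.

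*Homer1*, the scaffold that binds this receptor, had a CIE range of 74.7 to 168 CPM with a median of 100.6 CPM. In the Control group the range was 53.2 to 194.8 CPM with a median of 75.5 CPM. Of the 6 CIE rats, 5 were above the Control median, yet none was above Control rat 10. The log2 fold change was 0.29 (SE 0.30, edgeR FDR 0.856), with a 95% interval of -0.35 to 0.93. A single Control rat weighed heavily on this value. Without Control rat 10 the log2 fold change of *Homer1* was 0.65 (edgeR nominal p 0.00919, FDR 0.286), whereas without all 3 rats of high striatal score it was 0.30 (nominal p 0.0709), in a fit added with the data in view. Adjusted for the scores of cortical and striatal markers together, it was -0.0040 (nominal p 0.960). The cortical score was itself higher in CIE rats (median 4.07, against 2.36 in Control rats), so as a covariate it overlaps with the group. The same limit holds for every value below that is adjusted for these scores.

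*Grm5* and *Homer1* varied together from rat to rat, as described further on, and for this reason their RefSeq promoters are shown, from 250 bases before to 50 after the annotated start, in the GRCr8 build and both on the + strand of the chromosome. The capitals mark E-box letters (CANNTG). The *Grm5* window is chr1:150733503-150733802 and the *Homer1* window chr2:26278762-26279061.
Grm5: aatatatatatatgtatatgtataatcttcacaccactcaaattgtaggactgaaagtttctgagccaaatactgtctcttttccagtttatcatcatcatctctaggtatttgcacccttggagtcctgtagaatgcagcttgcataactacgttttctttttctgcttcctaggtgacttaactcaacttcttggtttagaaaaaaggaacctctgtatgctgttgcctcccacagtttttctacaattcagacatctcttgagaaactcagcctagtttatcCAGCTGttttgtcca
Homer1: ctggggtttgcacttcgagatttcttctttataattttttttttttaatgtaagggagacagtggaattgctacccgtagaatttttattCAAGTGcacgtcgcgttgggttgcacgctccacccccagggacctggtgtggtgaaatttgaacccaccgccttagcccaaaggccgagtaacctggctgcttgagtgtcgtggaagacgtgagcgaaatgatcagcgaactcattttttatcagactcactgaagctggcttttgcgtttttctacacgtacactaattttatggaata

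Each of the 2 windows held 1 E-box, as did 72.1% of 33469 rat promoters of this length at least once. On both strands, neither held the cyclic AMP response element TGACGTCA (1.83% of all promoters), its shorter core TGACG (21.2%, which includes every full element), the AP-1 motif TGANTCA (7.33%) or the GC box GGGCGG (33.1%). The *Homer1* window held the TATA box letters TATAAA on the reverse strand (14.2%), and the *Grm5* window did not. In the printed sequence this match begins 223 bases before the annotated start. The GC content was 37.3% for *Grm5* with 1 CpG and 44.7% for *Homer1* with 14, against medians of 51.7% and 7 over all promoters. A match of letters is a description and not a binding site. Promoter windows were found for 5 of the 9 members.

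*Homer2* and *Homer3* were steadier. *Homer2*, a long form with a coiled coil, was between 9.45 and 14.8 CPM in CIE rats (median 13.2 CPM) and between 11.5 and 15.4 CPM in Control rats (median 12.2 CPM). CIE rats 2 and 3 were below every Control rat, and the other 4 were above the Control median. Its log2 fold change was -0.0068 (SE 0.11, edgeR FDR 0.992), and the 95% interval of -0.25 to 0.23 stands for folds of 0.842 to 1.18. *Homer3* was between 10.3 and 14.1 CPM in CIE rats (median 12.04 CPM) and between 10.2 and 15.8 CPM in Control rats (median 13.1 CPM). All CIE values of *Homer3* lay inside the Control range, and its log2 fold change was -0.11 (SE 0.12, edgeR FDR 0.866). Read counts of *Homer1* relative to *Homer2* in the same library ranged from 5.83 to 15.3 in CIE rats (median 8.32) and from 4.61 to 16.2 in Control rats (median 5.97). This ratio is free of the normalization, and it too overlapped between the groups.

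Of the group II receptors, *Grm2* had the largest log2 fold change of the 9 members. Its CIE values were 10.6 CPM at the lowest, 19.7 CPM at the median and 33.8 CPM at the highest. In the Control group they were 10.5, 13.1 and 26.4 CPM. CIE rats 1 and 4 were above every Control rat, while CIE rats 2 and 3 were among the lowest of all 12. The log2 fold change was 0.48 (SE 0.30, edgeR nominal p 0.139, FDR 0.740), and its 95% interval of -0.17 to 1.13 stands for folds of 0.886 to 2.18. Control rat 12 was far above its group at 26.4 CPM, and in the fit that left it out the value was 0.72 (nominal p 0.0233, FDR 0.510). It was 0.28 without CIE rat 4 (nominal p 0.358), 0.35 without the 3 rats of high striatal score (nominal p 0.262) and 0.17 adjusted for cortical and striatal scores (nominal p 0.420).

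*Grm3* had nearly equal group means, 130.5 ± 33.6 CPM in CIE rats and 128.4 ± 12.2 CPM in Control rats (SD, n = 6 each). The CIE values were spread from 82.1 to 181 CPM with a median of 133.8 CPM, and the Control values from 110.3 to 147 CPM with a median of 129.4 CPM. CIE rats 3 and 5 were below and CIE rat 6 above every Control rat. The log2 fold change was 0.023 (SE 0.15, edgeR FDR 0.979). The myelin marker score had r = 0.82 with this gene, which did not pass the adjustment, as described further on. The score was itself lower in CIE rats (median 8.18, against 8.76 in Control rats), so as a covariate it overlaps with the group. With the myelin marker score as a covariate, the log2 fold change of *Grm3* was 0.36 (nominal p 0.0103, FDR 0.317).

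The group III receptors did not pass the test either. *Grm7*, the receptor placed in presynaptic active zones, was between 187 and 286 CPM in CIE rats (median 214.6 CPM) and between 147 and 289.7 CPM in Control rats (median 226.6 CPM). All 6 CIE rats lay inside the Control range. The log2 fold change was -0.010 (SE 0.14, edgeR FDR 0.989), with a 95% interval of -0.31 to 0.29. *Grm8* was between 45.01 and 67.9 CPM in CIE rats (median 49.6 CPM) and between 37.2 and 56.4 CPM in Control rats (median 50.4 CPM). CIE rat 4 alone was above every Control rat. Its log2 fold change was 0.069 (SE 0.12, edgeR FDR 0.923). *Grm4* was scarce, with 20 to 102 counts per CIE rat and 38 to 93 counts per Control rat. It was between 0.309 and 1.52 CPM in CIE rats (median 0.835 CPM) and between 0.522 and 1.57 CPM in Control rats (median 0.893 CPM). CIE rat 3 was below every Control rat and none was above Control rat 10. The log2 fold change was -0.071 (SE 0.35, edgeR FDR 0.973), and its 95% interval of -0.82 to 0.68 stands for folds of 0.567 to 1.598.

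**Figure D2:**
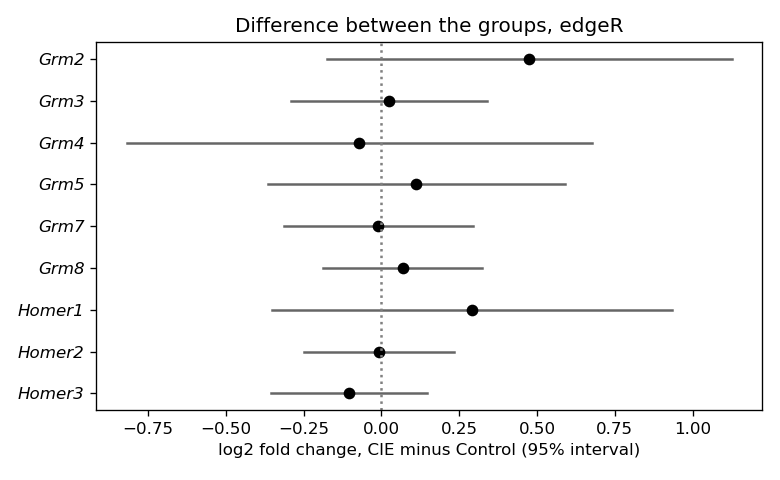
Log2 fold change of each gene, CIE minus Control, from edgeR (points) with its 95% interval (lines) over 6 CIE and 6 Control rats. Every interval includes 0, and the intervals of *Grm2*, *Grm4* and *Homer1* are the widest.

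Rats of the same group differed more in some members than in others. On the log2 scale the SD within groups was 0.58 for *Homer1*, 0.60 for *Grm2*, 0.65 for *Grm4* and 0.44 for *Grm5*, against 0.20 for *Homer2* and 0.21 for *Homer3*. Genes of a like level are those whose mean CPM lay within 1.25-fold. Of 1215 such genes 98.3% had a smaller SD than *Homer1*, of 1786 such genes 98.2% had a smaller SD than *Grm2*, and of 415 such genes 95.4% had a smaller SD than *Grm5*. For *Grm4*, with the largest SD, the share was 79.7% of 917 genes, and for *Homer2* it was 57.5% of 1611 genes. Without the 3 rats of high striatal score, a comparison added with the data in view, the SD was 0.28 for *Homer1*, 0.56 for *Grm2* and 0.25 for *Grm5*, and the shares were 94.2%, 99.0% and 89.4%. These 3 rats were also the highest of all in *Homer1* and in *Grm5*. Leaving them out therefore lowers the SD of both genes, whatever the striatal score stands for.

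*Grm5* and *Homer1* varied together across rats. After removal of the group means, their log2 CPM values over 12 rats had Pearson's r = 0.98 (permutation test within groups, p = 2e-05, Benjamini-Hochberg adjusted over 36 pairs of members 0.00072) and Spearman's rho = 0.96 (permutation p = 0.00046, adjusted 0.0166). Within CIE rats r was 0.98 and within Control rats 0.98. Without Control rats 8 and 10, the 2 farthest from the median of *Grm5*, r was 0.97. In the 9 rats without high striatal scores r was 0.92 (exact permutation test, p = 0.00417) and rho was 0.92 (exact p = 0.0170). The counts of *Homer1* relative to those of *Grm5* in the same library stayed between 0.340 and 0.457 in CIE rats and between 0.310 and 0.449 in Control rats. The medians of this ratio were 0.410 in CIE rats and 0.336 in Control rats, and the difference was not tested. No other pair of the 36 passed the adjustment by Pearson's r. *Grm2* and *Homer2* came next in r (r = 0.70, permutation p = 0.0233, adjusted 0.237, rho = 0.69, permutation p = 0.0263, adjusted 0.268, and r = 0.82 without CIE rat 4 and Control rat 12). For this pair r was 0.93 within CIE rats and 0.16 within Control rats.

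Striatal markers moved with both genes. The striatal projection neuron score had r = 0.92 with *Grm5* (permutation p = 0.00029, adjusted over 81 pairs of a score and a member 0.0117, rho = 0.87, permutation p = 0.00092, adjusted 0.0656) and r = 0.94 with *Homer1* (permutation p = 0.00014, adjusted 0.0113, rho = 0.83, permutation p = 0.00243, adjusted 0.0656). By Spearman's rho neither relation passed the adjustment. Without CIE rat 2 and Control rat 10, the 2 farthest on the striatal score, r was 0.80 for *Grm5* and 0.84 for *Homer1*. In the 9 rats without high striatal scores, r was 0.65 for *Grm5* (exact permutation p = 0.115, rho = 0.67, exact p = 0.0434) and 0.67 for *Homer1* (exact permutation p = 0.0507, rho = 0.63, exact p = 0.0611). Leaving out the 3 highest scores narrows the range of the score, which can lower r by itself, so nothing was concluded from this fall. Of the 10 striatal markers listed, 9 were tested and 0 differed between the groups at a nominal p below 0.05. Their summed level was 637 to 4333 CPM in CIE rats and 374.9 to 4657 CPM in Control rats. The cortical glutamatergic score, with medians of 4.07 in CIE rats and 2.36 in Control rats, had r = 0.77 with *Homer1* (permutation p = 0.00537, adjusted 0.0870, rho = 0.76, permutation p = 0.0126, adjusted 0.170, and r = 0.72 without CIE rat 1 and Control rat 10). All 10 cortical markers had log2 fold changes above 0, with a median of 1.03. The nominal threshold in edgeR was passed by 2 of 10, against 8.31% of all genes tested. The part of these markers in the levels of *Grm5* and *Homer1* was not tested.

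**Figure D3:**
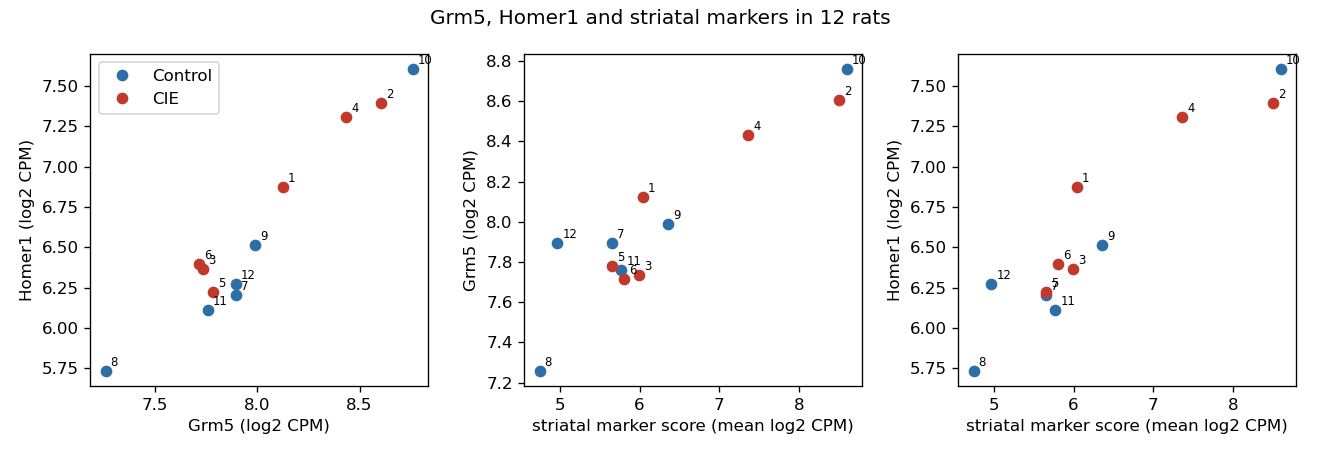
Log2 CPM of *Grm5* and *Homer1* against each other (left) and against the striatal marker score, the mean log2 CPM of 9 markers (middle and right), in 6 Control (blue) and 6 CIE (red) rats with their numbers. CIE rats 2 and 4 and Control rat 10 lie at the upper right of each panel, and the remaining 9 rats still line up in the left panel (r = 0.92).

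*Grm4* had its highest Pearson's r with the striatal score as well (r = 0.69, permutation p = 0.0159, adjusted 0.184, rho = 0.71, permutation p = 0.0132, adjusted 0.170, and r = 0.57 without CIE rat 2 and Control rat 10). With the astrocyte score it had rho = -0.84 (permutation p = 0.00213, adjusted 0.0656) and r = -0.63 (permutation p = 0.0549, adjusted 0.370, and r = -0.78 without CIE rat 6 and Control rat 12). Neither passed the adjustment. *Grm3* had r = 0.82 with the score of the myelinating oligodendrocyte markers (permutation p = 0.00456, adjusted 0.0870, rho = 0.76, permutation p = 0.00800, adjusted 0.162), which does not pass the adjustment over 81 pairs. Without CIE rats 3 and 6, the 2 farthest on this score, r was 0.55. *Homer3* had r = 0.76 with the endothelial score (permutation p = 0.00327, adjusted 0.0870, rho = 0.66, permutation p = 0.0147, adjusted 0.170, and r = 0.71 without CIE rat 1 and Control rat 12). The myelin score itself had a median of 8.18 in CIE rats and 8.76 in Control rats, and 9 of 10 myelin markers were lower at a nominal p below 0.05 in edgeR, among them *Mog* (log2 fold change -0.43, nominal p 0.0255, FDR 0.510). Their summed level was 5576 to 13540 CPM in CIE rats and 8503 to 15940 CPM in Control rats. The part of the myelin markers in the *Grm3* values was not tested. Of the other marker lists, the astrocyte list had 1 of 10 genes higher and 2 lower at a nominal p below 0.05 (median log2 fold change -0.027), with *Aqp4* at -0.28 (nominal p 0.0163). The microglia list had 1 of 10 lower, which was *Cx3cr1* (-0.28, nominal p 0.00169), and a median of -0.073. Of the oligodendrocyte precursor markers 2 of 9 were lower (median -0.17), with *Pdgfra* at -0.17 (nominal p 0.104). All 8 endothelial values were below 0 (median -0.27) and 4 of them passed the nominal threshold, while *Cldn5* was at -0.041 (nominal p 0.632). None of these markers passed 5% FDR in edgeR. Over all genes tested, 8.31% passed the nominal threshold.

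**Figure D4:**
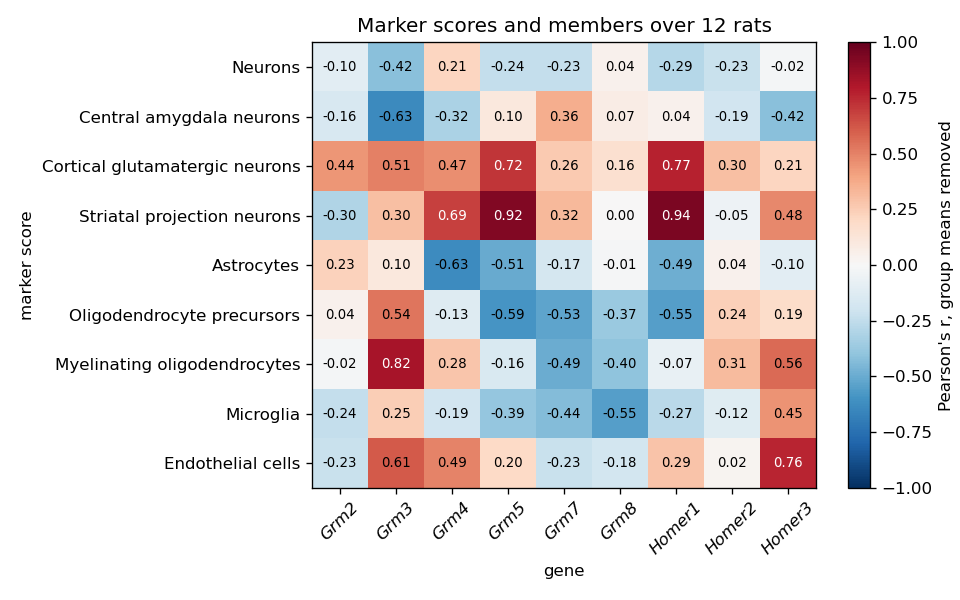
Pearson's r between the score of each marker list (rows) and each member (columns) over 12 rats, after removal of the group means, from -1 (blue) to 1 (red). *Grm5* and *Homer1* have the highest values, 0.92 and 0.94, both with the striatal score, and *Grm3* has 0.82 with the myelin score.

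The genes most like each member were taken from all tested genes with a mean of at least 5 CPM, by Pearson's r over the 12 rats after removal of the group means, as a description. For *Grm5* they were *Ano3* (r = 0.99), *Kcnj4* (r = 0.99), an inward rectifier potassium channel, and *Agap2* (r = 0.98), a GTPase that binds Homer. For *Homer1* they were *Rtn4rl1* (r = 0.99), a Nogo receptor homolog, LOC680336 (r = 0.98) and *Lrrc8b* (r = 0.98), a subunit of volume-regulated anion channels. *Grm3* was most like *Jag1* (r = 0.98), a Notch ligand, *Ptprb* (r = 0.98) and *Secisbp2l* (r = 0.97). *Grm2* was most like *Stxbp6* (r = 0.91), *Ndst3* (r = 0.89) and *Tmem2* (r = 0.88). The values for the other members were 0.94 to 0.95 in *Grm4* (LOC103689971, *Rpap2* and LOC102551656), 0.87 to 0.93 in *Grm7* (LOC102548665, *Acvr2a* and RGD1310712) and 0.86 to 0.91 in *Grm8* (*Rsrc1*, LOC361914 and *Npepps*). They were 0.88 to 0.90 in *Homer2* (LOC103691110, LOC103690156 and *Fn1*) and 0.87 to 0.88 in *Homer3* (*Cplx1*, *Slc25a26* and *Eng*). These rats share 12 libraries of differing composition, and the highest of many correlations is always large.

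The partners of these receptors and scaffolds were read from 5 lists. Of 80 partner genes tested, 6 had a nominal p value below 0.05 in edgeR (7.50%, against 8.31% of all genes), 5 with a higher and 1 with a lower level under CIE, and 0 passed 5% FDR. Their median log2 fold change was 0.047. The counts of single lists given below stand against the same 8.31% of all genes. The count was not stable. Without Control rat 10 it was 21 (26.2%, against 11.4% of all genes in that fit), of which 18 were higher. Without CIE rat 3 it was 11 (13.8%, against 13.3%), and without CIE rat 6 also 11 (13.8%, against 9.26%). Without the 3 rats of high striatal score it was 6 (7.50%, against 6.62%), all higher, of which 3 were among the 6 genes of the full fit.

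Among the genes of Gq, phospholipase C and calcium release, through which mGlu5 signals, 1 of 17 passed the nominal threshold. It was *Trpc1*, a cation channel subunit opened downstream of group I receptors, at 42.8 ± 1.90 CPM in CIE rats and 38.1 ± 3.32 CPM in Control rats (log2 fold change 0.16, edgeR nominal p 0.0206, FDR 0.478). Adjusted for cortical and striatal scores *Trpc1* was at 0.12 (nominal p 0.0673), and without Control rat 12 at 0.14 (nominal p 0.0508). The next smallest p values were those of the IP3 receptor *Itpr2* (-0.19, nominal p 0.0953) and of *Plcb3* (-0.12, nominal p 0.211). The median of this list was 0.077.

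The Homer-binding and postsynaptic scaffold genes had 0 of 16 past the nominal threshold. Of these log2 fold changes 13 were above 0, with a median of 0.16, and the summed level was 4988 to 7530 CPM in CIE rats and 4742 to 7576 CPM in Control rats. *Shank2*, which Homer links to the receptor, was at 120 ± 28.3 CPM against 100.5 ± 13.2 CPM (log2 fold change 0.26, edgeR nominal p 0.0900). *Dlgap4* (0.22, nominal p 0.0991) and *Dlgap1* (0.18, nominal p 0.100), which join Shank to PSD-95, followed.

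Among the Gi/o and presynaptic receptor partners 1 of 16 passed. *Gnai3*, an inhibitory G protein alpha subunit, was at 35.3 ± 1.38 CPM in CIE rats and 39.2 ± 2.45 CPM in Control rats (log2 fold change -0.15, edgeR nominal p 0.0187, FDR 0.462). The call was lost without the 3 rats of high striatal score (-0.14, nominal p 0.0772) and with the myelin score as a covariate (-0.15, nominal p 0.0679). *Grip1* (0.11, nominal p 0.275) and *Adcy1* (0.30, nominal p 0.294) did not pass. The median of this list was -0.014.

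Of the genes for supply and clearance of glutamate and of NAAG, a peptide agonist of the *Grm3* receptor, 1 of 15 passed. It was *Slc3a2*, the heavy chain of the cystine-glutamate exchanger (log2 fold change 0.11, edgeR nominal p 0.0474, FDR 0.595), and this call was lost in 12 of 21 alternative fits, 9 of them among the 12 that left out a single rat. *Slc17a7* had the largest log2 fold change of the list, 2.01, with an SE of 1.10 (edgeR nominal p 0.0901). Its value was 3.34 without Control rat 10 (nominal p 0.00837), 2.95 without the 3 rats of high striatal score (nominal p 0.0254) and -0.045 adjusted for cortical and striatal scores (nominal p 0.862), the first of which this gene belongs to. *Slc1a1*, a neuronal glutamate transporter, had 0.15 (nominal p 0.0981), and 0.22 without those 3 rats (nominal p 0.0157).

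Receptor desensitization and plasticity held 3 of 16, all with a higher level under CIE, against 8.31% of all genes tested. It is 1 of 5 lists, over which the share was 7.50%. *Eef2k*, a kinase of translation elongation that group I receptors engage, was at 21.7 ± 2.86 CPM against 17.7 ± 1.72 CPM (log2 fold change 0.29, edgeR nominal p 0.00849, FDR 0.358). *Rgs7*, a regulator of Gi/o signaling, was at 79.1 ± 7.51 CPM against 68.7 ± 3.33 CPM (0.20, nominal p 0.00876). *Siah1*, a ubiquitin ligase that binds group I receptors, was at 29.5 ± 1.44 CPM against 26.4 ± 1.47 CPM (0.16, nominal p 0.0155). The groups overlapped in all 3 genes, and none passed 5% FDR. *Eef2k* was at 0.22 without the 3 rats of high striatal score (nominal p 0.0653) and at 0.18 adjusted for cortical and striatal scores (nominal p 0.0576). *Siah1* was at 0.13 without those rats (nominal p 0.0981) and at 0.12 with the myelin score as a covariate (nominal p 0.128). *Rgs7* kept a nominal p below 0.05 in all 21 alternative fits, which share most of their rats. Adjusted for cortical and striatal scores it was at 0.13 (nominal p 0.0465, FDR 0.562).

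**Figure D5:**
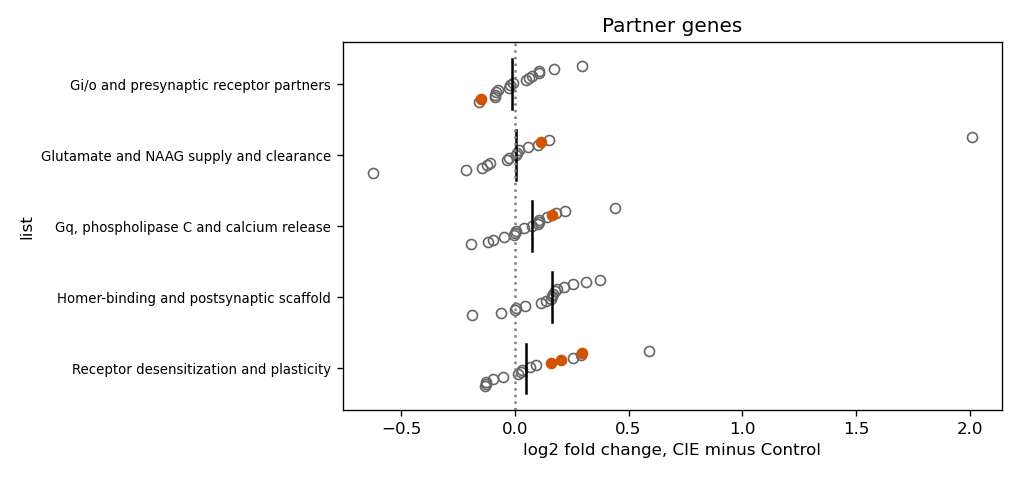
Log2 fold change, CIE minus Control, of 80 partner genes in 5 lists, with filled orange points for the 6 genes at a nominal p below 0.05 in edgeR, open points for the rest and black bars for the list medians. The point at 2.01 is *Slc17a7*.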

How the data were processed

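The deposited table holds raw counts per gene for each of 12 rats, which the authors obtained with HTSeq after BWA alignment to the rat genome build Rnor_6.0. They compared the groups with DESeq2. Gene annotation, strand and overlap settings are not given in the sources used here, so reads of overlapping or antisense genes could not be told apart. Counts were normalized by TMM and filtered by filterByExpr in edgeR 4.0.16 (R 4.3.3), and 20944 genes were compared by the two-sided quasi-likelihood test with group as the single term. FDR is the Benjamini-Hochberg adjusted p over these genes. DESeq2 1.42.0 and limma 3.58.1 were alternatives. The log2 CPM values used a prior count of 2. Each standard error was derived from the fold change and its F statistic. The fit was tested on simulated data. Relations between rats used 100000 permutations within groups. Members, lists and tests were chosen with earlier results of these data known.

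Named genes were the 9 members, the 3 smallest p values of each partner list, the defining gene of each marker list and the 3 genes most like each member. *Agap2* belongs to a partner list as well. The rule also covers 2 further receptor rows and 1 marker gene, which are not reported here. All members matched RefSeq symbols. Promoters came from RefSeq (GRCr8). Python 3.11.15 with scipy 1.17.1 was used for the rest.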

Additional observations from a re-analysis of the deposited data

Results flagged for a closer look

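Of 18 groups of 6 rats (9 genes in 2 groups), 5 held a value whose gap to its nearest neighbor was large against the range of the group by Dixon's 95% limit. For independent groups of normally distributed values, chance flags about 1 in 20. These 18 groups share 12 rats, and linear CPM values can be skewed, so 5 of 18 was not read as an excess. All 5 were the highest value of the group. Control rat 10 stood apart in *Grm5* (433.5 CPM, the next at 254 CPM) and in *Homer1* (194.8 CPM, the next at 91.5 CPM), and it had the highest striatal marker score of all 12 rats. CIE rat 4 stood apart in *Grm8* (67.9 CPM, the next at 50.6 CPM). Control rat 12 did so in *Grm2* (26.4 CPM, the next at 14.7 CPM) and Control rat 9 in *Homer2* (15.4 CPM, the next at 12.6 CPM).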

How the results depend on the processing

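No paired analysis was possible because the groups share no replicate number. No member and no partner gene passed 5% FDR under any alternative run, and at a nominal p below 0.05 the number of members was 0 to 1. It was 1 under limma-voom with sample quality weights (*Homer1*, log2 fold change 0.60, p 0.0219), 1 with the myelin score as a covariate (*Grm3*), 1 without Control rat 10 (*Homer1*) and 1 without Control rat 12 (*Grm2*). In these fits, in the same order, 17.2%, 11.15%, 11.4% and 8.07% of all genes passed this threshold. Partner genes numbered 23 of 80 under limma-voom (28.75%, against 17.2% of all genes in that fit), of which 19 were higher. With a rat left out they numbered from 4 (5.0%, against 8.07%, without Control rat 12) to 21 (26.2%, against 11.4%, without Control rat 10). Without removal of the group means, 14 of the 27 genes most like a member were the same. No exact permutation test changed side on linear CPM.

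Of 189 refitted member fold changes, 33 changed sign, none of them past the nominal threshold. Adjusted for cortical and striatal scores together, the value was -0.11 for *Grm3*, -0.11 for *Grm5* and -0.0040 for *Homer1*. With the myelin score it was 0.11 for *Grm4*, -0.071 for *Grm8*, 0.078 for *Homer2* and 0.080 for *Homer3*. Under limma-voom it was 0.18 for *Grm4*, 0.033 for *Grm7* and 0.011 for *Homer2*. With library size only it was 0.0032 for *Grm7* and 0.0090 for *Homer2*, and *Homer2* was at 0.0011 with DESeq2 size factors and 0.0005 in DESeq2. Without the 3 rats of high striatal score *Grm8* was at -0.031. With a rat left out the ranges were 0.28 to 0.72 (*Grm2*), -0.092 to 0.13 (*Grm3*), -0.29 to 0.14 (*Grm4*), -0.012 to 0.33 (*Grm5*), -0.10 to 0.077 (*Grm7*), -0.027 to 0.11 (*Grm8*), 0.15 to 0.65 (*Homer1*), -0.058 to 0.065 (*Homer2*) and -0.17 to -0.050 (*Homer3*). The causes were not tested. Over all genes, 76 passed 5% FDR in edgeR, against 294 in DESeq2, 234 under limma-voom, 38 with the myelin score and 34 without the 3 rats of high striatal score, with 34 to 154 when a rat was left out. At a nominal p below 0.05, limma-voom gave 3596 genes and the fit without CIE rat 3 gave 2811, against 1740, and the share of higher genes was 48.1% with TMM and 60.3% with library size only. *Grm4* had as few as 20 counts in a rat, while every other member had at least 447.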
